A study of Mus musculus with 20 samples.

Results

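A set of 9 genes that hepatocytes of the fetal liver are known to express (Alb, Afp, Apoa1, Apoa2, Apoh, Ttr, Ahsg, Fga and Fgb) were followed through RNA-seq libraries of mouse blood progenitors. They were chosen by name, with earlier results of these data known, and make up 9 of the 53379 gene identifiers in the tables. All 9 passed the filter on low counts, which left 15835 genes for testing. The 20 libraries came from cells described as Lin-, that is, without surface markers of mature blood lineages. The cells were infected with a murine stem cell virus (MSCV) vector right after isolation, where the record says when, and RNA was taken after 3 days of culture. There were 5 groups of 4 libraries. The first was wild-type cells with a control vector. The others lacked the enhancer that lies 77 kb upstream of Gata2, which encodes a DNA-binding regulator of early blood cells. These enhancer-null cells carried the control vector, GATA2, GATA2 with the protein change R307W, or GATA2 with the protein change T354M. The records of the first 3 groups give fetal liver at E14.5, the C57BL/6J strain and medium with 20% serum and 4% each of media conditioned with IL3 and SCF. The R307W and T354M records give the cell type, vector and time in culture but not the age, strain, tissue or medium. The vector was delivered to a mixed population, the RNA was from the bulk culture, and the labels do not say whether the cells of 1 library came from 1 or several embryos.

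The fetal liver is both the main site of blood formation before birth and a growing liver, so its hepatoblasts and hepatocytes lie beside the progenitors. Hepatocytes make most proteins of the blood plasma, and their secreted products are among the most abundant transcripts of liver. Alb encodes albumin, the main carrier protein of adult plasma, and Afp encodes alpha-fetoprotein, its fetal relative from the same gene family. Apoa1, Apoa2 and Apoh encode lipoprotein proteins, Ttr encodes transthyretin, a carrier of thyroid hormone and of retinol-binding protein, Ahsg encodes the plasma glycoprotein fetuin-A, and Fga and Fgb encode 2 of the chains of fibrinogen. None of these is a product that blood progenitors are known for, and in a lineage-depleted culture they are read as liver transcripts. The cell source of the transcripts was not tested, and in bulk RNA fewer cells of a type and less RNA per cell cannot be told apart.

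Alb and Afp lie next to each other on chromosome 5 (GRCm38, GENCODE M21). Alb spans chr5:90460897-90476602 and Afp spans chr5:90490737-90508907, both on the plus strand, 14.1 kb apart with 0 annotated genes between them. Fga, at chr3:83026076-83033627 on the plus strand, and Fgb, at chr3:83040141-83049863 on the minus strand, are 6.5 kb apart with 0 genes between. The other members lie apart: Apoa1 at chr9:46228580-46230466, Apoa2 at chr1:171225054-171226379, Apoh at chr11:108343354-108414396 and Ahsg at chr16:22891277-22899449, each on the plus strand, and Ttr on another chromosome. Apoh overlaps Prkca on the opposite strand, which had 239 to 1945 counts per library. The sources used here do not say whether reads were counted by strand, so the 4 to 63 counts of Apoh per library may include reads of Prkca.

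The promoters of the 2 neighbour pairs share a short motif. The 250 bases before the transcription start are shown for Alb, Afp and Fgb, because these genes moved together across libraries and have a match to GTTAAT, a core sequence bound by the hepatocyte nuclear factor HNF1. Sequences are from RefSeq on GRCm38.p6, read 5′ to 3′ on the strand of the gene, and capitals mark GTTAAT or its reverse complement ATTAAC. They cover chr5:90460620-90460869 for Alb and chr5:90490464-90490713 for Afp, both on the plus strand, and chr3:83049864-83050113 on the minus strand for Fgb.
Alb: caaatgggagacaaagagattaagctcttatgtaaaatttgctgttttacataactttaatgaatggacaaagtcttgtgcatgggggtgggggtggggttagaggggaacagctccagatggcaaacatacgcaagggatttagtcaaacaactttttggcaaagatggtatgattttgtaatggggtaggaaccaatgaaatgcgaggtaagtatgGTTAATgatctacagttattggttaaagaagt
Afp: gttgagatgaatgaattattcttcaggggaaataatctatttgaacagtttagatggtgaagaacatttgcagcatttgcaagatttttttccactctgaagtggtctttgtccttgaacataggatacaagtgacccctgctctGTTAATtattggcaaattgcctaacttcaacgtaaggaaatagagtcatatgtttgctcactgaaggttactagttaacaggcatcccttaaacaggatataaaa
Fgb: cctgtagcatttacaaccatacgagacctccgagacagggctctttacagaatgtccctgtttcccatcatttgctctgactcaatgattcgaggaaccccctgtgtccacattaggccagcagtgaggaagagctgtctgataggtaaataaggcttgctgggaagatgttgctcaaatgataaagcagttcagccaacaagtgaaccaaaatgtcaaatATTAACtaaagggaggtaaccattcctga
Promoter entries were used for 8 of the 9 members, Ttr being not used here. Apoa2 had 2 entries, the first at chr1:171224804-171225053 and the second at chr1:171221314-171221563. A match in either was counted, so Apoa2 had 2 windows in which to match. The windows follow the RefSeq starts, which differ from the GENCODE spans above for some genes. Those of Ahsg (chr16:22891765-22892014) and Apoh (chr11:108395047-108395296) lie inside the GENCODE spans. Those of Fga (chr3:83025903-83026152) and Apoa1 (chr9:46228380-46228629) run past the GENCODE start. On either strand GTTAAT was found in 4 of these 8, Alb, Afp, Fga and Fgb, and in 6.43% of the 32851 promoters of the same length. The HNF4 motif GGNCAAAG was found in 3 of the 8 (Afp, Ahsg and Alb) and in 4.89% of all promoters. The C/EBP motif TTGCNNAA was found in 6 of the 8 (Afp, Ahsg, Alb, Fga, Fgb, and Apoa2 in its second entry only) and in 9.56% of all. AGATAA, a form of the motif of the GATA factors, was found in 0 of the 8 and in 9.99% of all. Other forms of this motif, such as the TGATAA in the Fgb sequence above, were not searched for. TATAAA was found in 2 of the 8 (Afp, and Apoa2 in its first entry) and in 12.4% of all. A match is a run of letters in this window and does not show that a factor binds there.

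Across the series, libraries held 22330475 to 33245876 expected counts, the number of reads that the authors' quantification assigned to genes. Between 17.9 and 24.6% of these came from mt-Rnr2, a mitochondrial ribosomal RNA. The targeted gene followed the labels: Gata2 stood at 43.2 ± 9.65 CPM (counts scaled to library size; SD, n = 4) in wild-type cells, at 5.79 ± 1.28 in enhancer-null cells with the control vector, and at 52.4 ± 20.1 to 81.6 ± 37.9 in the groups with a GATA2 vector. Its lowest library in any other group, at 30.8 CPM, was above the highest enhancer-null control library, at 7.63 CPM. Ptprc, the pan-leukocyte marker CD45, stood at 195 to 697 CPM and Kit, a progenitor receptor, at 70.5 to 143 CPM.

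All 9 hepatocyte genes had counts in all 20 libraries, at very unequal levels. On the length-scaled TPM scale, averaged over the 20 libraries, Afp stood at 296, which placed it 270th among all genes, and Alb at 78.0, which placed it 941st. Ahsg, Fga, Ttr and Fgb formed a middle group, with Fga at 14.8, Ttr at 13.9 and Fgb at 12.8 TPM and Ahsg just above them. Apoa2 (4.91 TPM) and Apoa1 (3.85) were lower, and Apoh was the lowest, at 0.723 TPM and 4 to 63 counts per library. Together the 9 genes took 0.0110 to 0.277% of a library's counts, with a median of 0.0700%.

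The makeup of this signal varied much less than its size. Afp held 64.7 to 76.3% of the summed counts of the 9 genes and Alb 13.9 to 21.6%, so that the pair made up 82.8 to 90.2% in every library. The ratio of Afp to Alb on the TPM scale was 3.08 to 5.46, with a median of 4.06, so the fetal member of the pair was the higher in all 20 libraries. In counts this ratio averaged 3.71 ± 0.158 in wild-type cells and 4.37 ± 0.816 in enhancer-null cells with the control vector (SD, n = 4 each), a difference within the range of the second group. The ratio of Fga to Fgb, which encode partner chains of 1 protein, was 0.828 to 1.36 in TPM, with a median of 1.09. From the lowest to the highest library the summed share of counts changed 25.3-fold, the ratio of Afp to Alb 1.77-fold and the ratio of Fga to Fgb 1.64-fold.

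**Figure D1:**
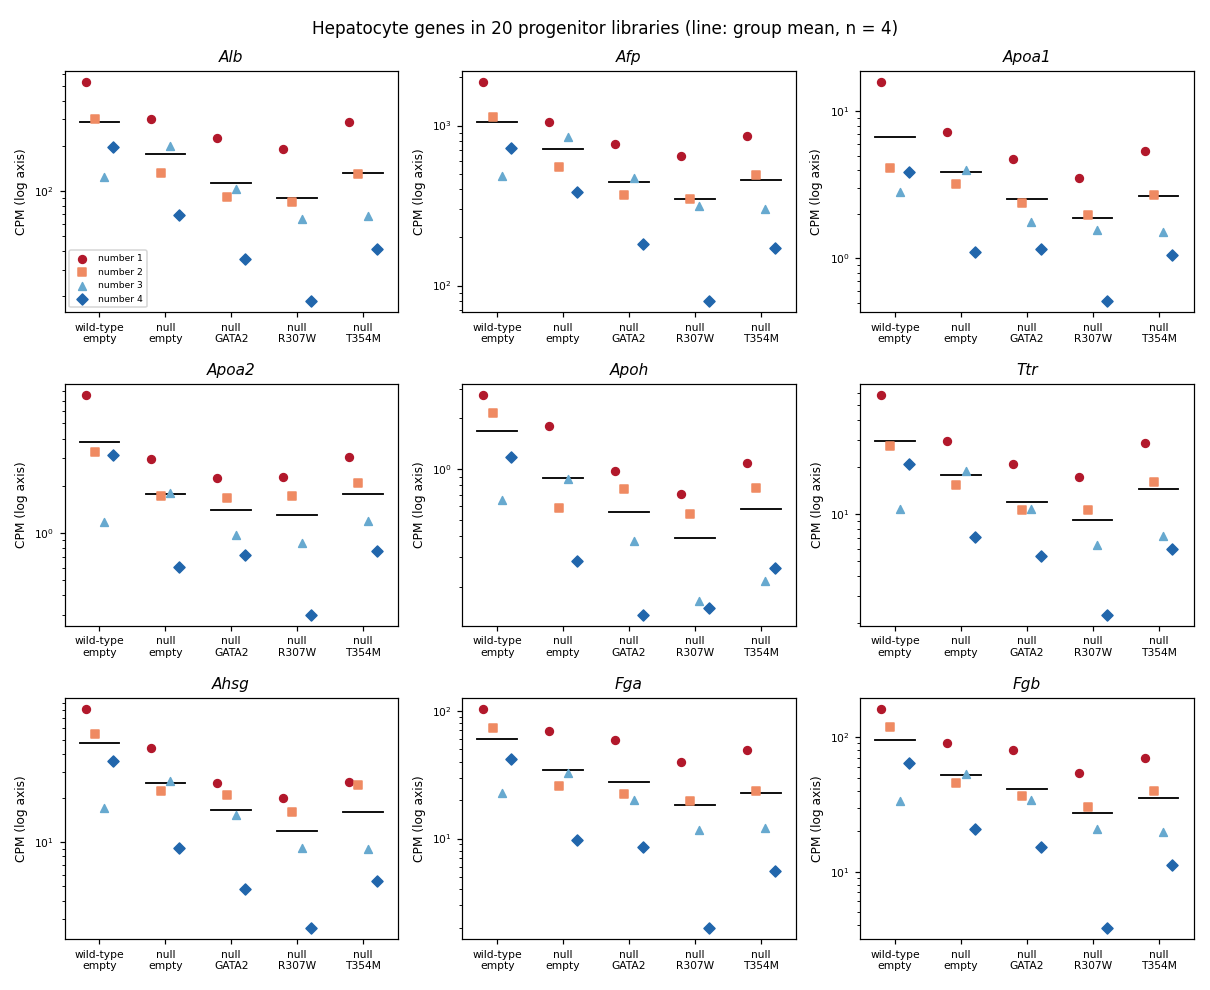
Each panel plots 1 gene in the 20 libraries, with normalised CPM on a log axis, the 5 groups along the horizontal axis, 4 points for replicate numbers 1 to 4 and a line at the group mean. Afp ran from 79.9 to 1879 CPM and Apoh from 0.137 to 2.74 CPM, and in all 9 panels number 1 was the highest library of each group.

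Levels in each library were compared as CPM after scaling. Afp stood at 1879, 1128, 487 and 723 CPM in wild-type libraries 1 to 4, and at 1060, 551, 851 and 382 CPM in the enhancer-null libraries with the control vector. With a vector it stood at 768, 367, 468 and 181 CPM for GATA2, at 650, 350, 312 and 79.9 CPM for R307W, and at 863, 492, 302 and 173 CPM for T354M. In every group the library numbered 1 was the highest, the 4 enhancer-null groups each had their lowest value in number 4, and the wild-type group had its lowest in number 3. Alb, the neighbour of Afp, stood at 534, 304, 125 and 196 CPM in wild-type cells and at 299, 131, 200 and 69.6 CPM in enhancer-null control cells. Its values were 226, 91.4, 102 and 35.2 CPM with GATA2, 190, 85.2, 65.0 and 18.5 CPM with R307W, and 288, 129, 68.2 and 41.5 CPM with T354M. The order of libraries within each group was the same for Alb as for Afp.

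Fga, a fibrinogen chain, had the widest spread within a group. It stood at 104, 72.8, 22.9 and 42.1 CPM in wild-type libraries 1 to 4 and at 39.4, 19.7, 11.7 and 1.99 CPM in R307W libraries, a ratio of 19.8 between R307W numbers 1 and 4. The enhancer-null control libraries stood at 69.0, 25.7, 32.3 and 9.81 CPM. Its partner Fgb ran from 163 CPM in wild-type number 1 to 3.80 CPM in R307W number 4. Ahsg, the fetuin-A gene, stood at 81.6, 54.9, 17.1 and 35.7 CPM in wild-type cells and at 20.2, 16.1, 9.20 and 2.60 CPM with R307W. Apoa2 ran from 0.302 to 7.57 CPM over the 20 libraries, again between R307W number 4 and wild-type number 1.

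All 9 genes differed between replicate numbers. The test compared the 4 numbers in 1 model with the 5 group means (edgeR's quasi-likelihood F test, 20 libraries, adjusted over all genes tested), and the adjusted p ran from 0.000701 for Apoa1 to 0.00591 for Apoa2. Of all genes tested 10.9% were called by the same test. An earlier description of these data already showed lower hepatocyte genes in number 4, so the calls of these 9 are not independent of it. Number 1 lay above the mean of the other numbers by 1.23 ± 0.229 (SE) on the log2 scale for Ahsg to 1.81 ± 0.244 for Fga. Number 4 lay on the other side, at -1.16 ± 0.271 for Apoa2 to -1.77 ± 0.302 for Fga. Numbers 2 and 3 lay between, with differences of 0.08 to 0.67 for number 2 and -0.78 to -0.08 for number 3. The labels do not say what a replicate number stands for, such as a litter, a day or a preparation, and do not say whether replicates came from separate animals, so p-values measure the spread between these libraries, which may be technical.

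**Figure D2:**
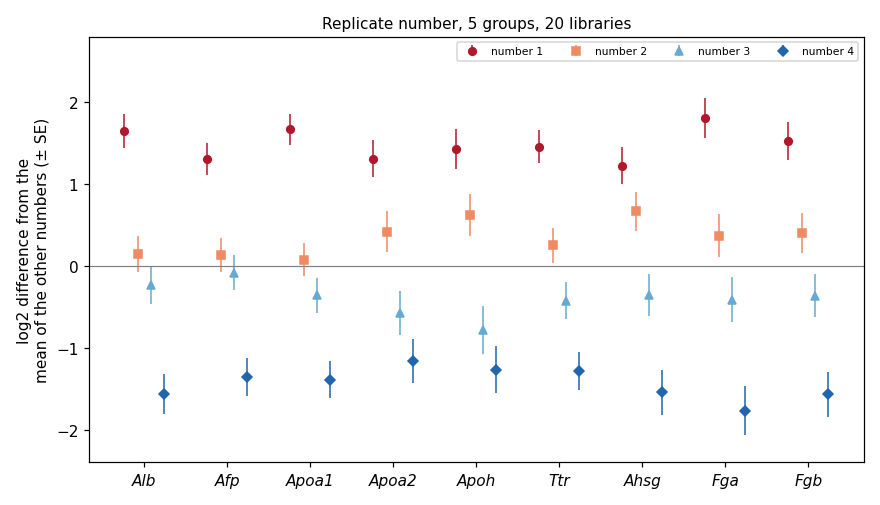
For each gene the points give the log2 difference of a replicate number from the mean of the other numbers, with its SE, from the model over 20 libraries. Number 1 sits between 1.23 and 1.81 and number 4 between -1.77 and -1.16 for all 9 genes, with numbers 2 and 3 between them.

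Library by library the pattern held in every enhancer-null group. Number 1 was the highest library in 5 of 5 groups for 9 of 9 genes, and number 4 the lowest in 4 of 4 enhancer-null groups for 8 of 9, the exception being Apoh with 3. Both at once were seen for 0.745% of all genes tested and for 29 of the 53 tested genes of the other hepatocyte lists. Number 1 was highest in all 5 groups for 1.44% of all genes tested, and number 4 lowest in the 4 enhancer-null groups for 5.01%. Genes called by number and highest in number 1 made up 2.19% of all genes tested, and those called and lowest in number 4 made up 5.04%. For the summed level of the 9 genes, number 1 exceeded number 4 by 2.61-fold in wild-type cells, 3.20-fold in enhancer-null control cells, 4.71-fold with GATA2, 8.88-fold with R307W and 5.45-fold with T354M. All 9 genes were still called in the 16 enhancer-null libraries alone, without number 4 of all groups, and with any single library left out, but 3 of 9 were called without number 1 of all groups.

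Other measures moved with the replicate number too. Number 4 libraries were the deepest, with a median of 29727013 counts against 23777453 to 25498648 in the other numbers. Summed levels of 10 erythroid genes were highest in number 4 in 5 of 5 groups, and all 6 of the erythroid genes called by number lay above the other numbers in number 4, so they ran opposite to the hepatocyte genes. The share of mt-Rnr2 had medians of 18.2 to 19.7% over the 4 numbers. The part of depth and of erythroid transcripts in the pattern was not tested.

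The replicate number accounted for more of the variation of these genes than the group did. Splitting the sum of squares of log2 CPM over the 20 libraries gave the number 49.7 to 61.3% (median 55.9%) and the group 27.8 to 39.3% (median 31.9%) for the 9 genes. For the 53 other hepatocyte genes tested the medians were 46.7% for number and 34.6% for group. Over all genes tested they were 13.9% and 48.1%, and for Gata2, the targeted gene, 7.39% and 90.1%. The number share of each of the 9 genes lay between the 96.1 and the 98.9 percentile of all genes tested.

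**Figure D3:**
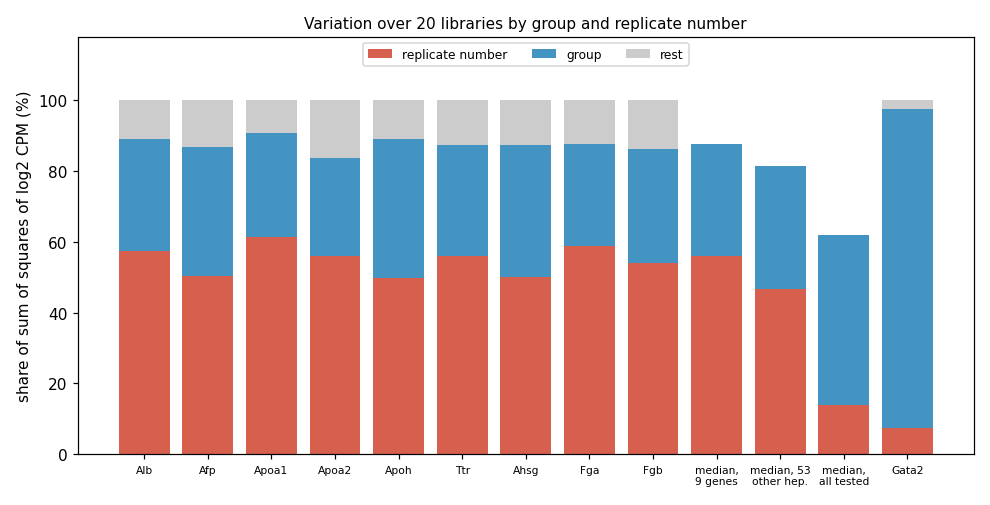
Bars give the percentage of the sum of squares of log2 CPM over 20 libraries that goes with the replicate number, with the group and with the rest; the 3 median bars show medians of number and group taken separately, with no rest. Number exceeds group for each of the 9 genes (49.7 to 61.3% against 27.8 to 39.3%), the reverse of Gata2 and of the median gene.

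Between groups, wild-type cells had the highest mean and R307W cells the lowest for 9 of 9 genes. The summed level was 1588 ± 936 CPM in wild-type cells, 1023 ± 479 in enhancer-null control cells, 682 ± 478 with T354M, 662 ± 390 with GATA2 and 508 ± 358 with R307W (SD, n = 4 each). Neighbours in this order overlapped widely. Enhancer-null control cells came second for 8 of 9 genes, T354M for Apoa2, and the order of T354M and GATA2 in the middle differed between genes. For no gene did the 4 libraries of one group all lie above or below the 4 of another, in any of the 10 comparisons. Such separation was found for 38.8% of all genes tested between enhancer-null control and wild-type cells, and for 25.3%, 26.1% and 29.1% between GATA2, R307W and T354M cells and wild-type cells. It was found for 28.3%, 27.1% and 24.9% between these 3 and the enhancer-null control, and for 6.08%, 14.8% and 8.14% for R307W against GATA2, T354M against GATA2 and R307W against T354M.

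Loss of the enhancer, compared within the control vector, gave no call among the 9 genes in the model of group means, which has no term for replicate number. Log2 differences of enhancer-null from wild-type cells ran from -1.10 ± 0.602 (SE) for Apoa2 to -0.57 ± 0.576 for Afp, with a median of -0.82 against -0.05 over all genes tested. By edgeR's test 0 of 9 had an adjusted p under 0.05 and 0 of 9 an unadjusted p under 0.05, DESeq2 called 0, and 43.3% of all genes tested were called. Within replicate numbers the direction was not uniform: the summed level in enhancer-null over wild-type cells was 0.564, 0.465 and 0.459 for numbers 1, 2 and 4 but 1.70 for number 3. All 9 genes showed that same split, with ratios of 1.33 to 1.76 in number 3. A fit with a replicate block, given in the closing section, called 7 of the 9 genes lower. That fit called 48.1% of all genes tested, 25.9% of all as lower.

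Adding a GATA2 vector to enhancer-null cells gave no call either in the model without a term for replicate number. Median log2 differences from the control vector were -0.62 for GATA2, -0.97 for R307W and -0.59 for T354M, and 0 of 9 genes passed an adjusted or an unadjusted p of 0.05 in any of the 3 by edgeR, nor an adjusted one by DESeq2. The calls over all genes tested were 19.2% for GATA2, 17.5% for R307W and 17.4% for T354M. With a replicate block, given in the closing section, 8 of 9 genes were called lower for R307W and 0 for GATA2 and for T354M. The blocked fits called 25.9% of all genes tested for R307W, 25.8% for GATA2 and 24% for T354M. Within replicate numbers 1 to 4 the summed level over the control vector was 0.741, 0.695, 0.550 and 0.504 for GATA2, 0.609, 0.647, 0.360 and 0.220 for R307W, and 0.831, 0.917, 0.354 and 0.488 for T354M. All 12 of these ratios were below 1, though single genes crossed it, such as Apoa2 in 3 of the 4 T354M numbers. The 3 comparisons share the control vector libraries.

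Between the vectors the genes differed least. Median log2 differences were -0.43 for R307W against GATA2, 0.05 for T354M against GATA2 and -0.46 for R307W against T354M. In these comparisons edgeR and DESeq2 each called 0 of 9 genes, and 0 of 9 had an unadjusted p under 0.05 by edgeR. Background calls were 1.73%, 10% and 3.49% of all genes tested.

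The comparisons with wild-type cells held the calls in the model of group means, which has no term for replicate number. R307W cells were lower than wild-type cells for 5 of 9 genes by edgeR's test: Apoh by -2.12 ± 0.687 log2 units (adjusted p = 0.0228), Ahsg by -1.98 ± 0.654 (0.0248), Afp by -1.60 ± 0.588 (0.0427), Apoa1 by -1.83 ± 0.686 (0.0466) and Ttr by -1.69 ± 0.632 (0.0467). The other 4 had differences of the same size, from -1.80 ± 0.700 for Fgb to -1.56 ± 0.615 for Apoa2, with adjusted p of 0.0553 to 0.101, and all 9 had an unadjusted p under 0.05. Over all genes tested 33.5% were called, 17% as lower, and the median of the 9 was -1.74 against 0.01.

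Library values show how far these calls rest on single libraries. Apoa1, the main protein of high-density lipoprotein, stood at 15.9, 4.12, 2.82 and 3.89 CPM in wild-type libraries 1 to 4 and at 3.53, 1.97, 1.57 and 0.513 CPM with R307W. Ttr, the transthyretin gene, stood at 58.0, 27.5, 10.7 and 20.8 CPM against 17.4, 10.6, 6.36 and 2.26 CPM. Apoh stood at 2.74, 2.16, 0.657 and 1.18 CPM against 0.706, 0.540, 0.165 and 0.151 CPM. For each of the 3 genes the highest R307W library lay above the lowest wild-type library. Within replicate numbers the summed level with R307W over wild-type was 0.344, 0.301, 0.611 and 0.101, and each of the 9 genes was below 1 in all 4. The 5 calls became 0 without wild-type library 1, R307W library 3 or R307W library 4, and 9 without R307W library 1. Without wild-type library 1 the log2 difference of Apoa1 was -0.94 in place of -1.83 (edgeR adjusted p = 0.291). The count also fell to 2 or 3 without wild-type library 2, R307W library 2, or number 2 or 3 of the enhancer-null control, GATA2 or T354M libraries. It was 4 without number 4 of all groups and 5 without number 1, and DESeq2 called 7. Leaving out 1 library also leaves the groups unequal in replicate number, for which this model has no term. With a replicate block, given in the closing section, all 9 genes were called lower for R307W (edgeR adjusted p of 0.000117 to 0.00127). That blocked fit called 38.7% of all genes tested, and it was not repeated with single libraries left out.

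GATA2 and T354M cells were also below wild-type cells on average, without a call in the model of group means. Median log2 differences were -1.35 for GATA2 and -1.33 for T354M, the lowest adjusted p by edgeR was 0.0759 and 0.0665, and DESeq2 called 0 in both. An unadjusted p under 0.05 was found for 4 and for 2 of 9 genes. Background calls were 30.7% and 37% of all genes tested. Leaving out 1 library gave 0 or 1 call for GATA2, the 1 being without wild-type library 3, and 0 to 4 for T354M, with 4 without T354M library 1, 2 without wild-type library 3 and 1 without R307W library 4. The 4 comparisons with wild-type cells share the wild-type libraries, and whether they differ from each other is given only by the tests between the vectors above. With a replicate block, given in the closing section, all 9 genes were called lower for GATA2 and for T354M. The same blocked fits called 37.1% and 42.7% of all genes tested.

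**Figure D4:**
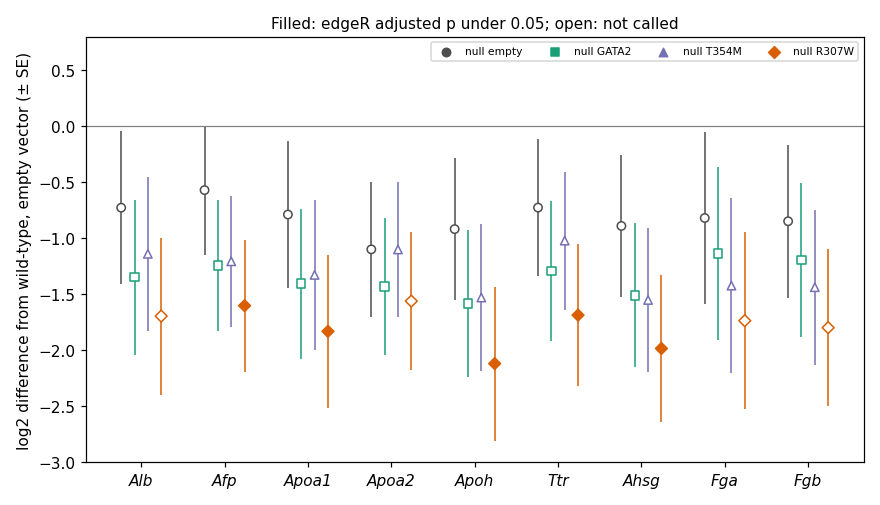
Points give the log2 difference of each enhancer-null group from wild-type cells with the control vector, with its SE, for the 9 genes; filled points have an edgeR adjusted p under 0.05. All points lie below 0, and the 5 filled ones, from -2.12 (Apoh) to -1.60 (Afp), belong to R307W.

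Genes of other cell types differed between wild-type and enhancer-null cells as well. Erythroid genes were the clearest: all 10 tested were lower in enhancer-null control cells and in R307W cells than in wild-type cells, with median log2 differences of -4.41 and -4.78, and their summed TPM was 4154 to 8216 in wild-type libraries against at most 1168 in any other library. Of 8 liver macrophage genes tested, 5 were higher and 1 lower in enhancer-null control than in wild-type cells. Clec4f, Vsig4, Timd4 and Cd163, markers of liver-resident macrophages, had means of 0.55 to 1.85 counts per library. Other genes of the same list were not near absent. Cd5l had a mean of 53.35 counts per library and Marco 33.35, each with counts in all 20 libraries. C1qa (mean of 97.65 counts), C1qb (824.65) and C1qc (463.35) also had counts in all 20, while Fcna had a mean of 5.5. Adgre1 (43.4 TPM) and Csf1r (52.6 TPM) were plentiful. Genes of sinusoidal endothelium, at 17.1 to 36.9 summed TPM, gave 1 higher and 1 lower call of 8 in enhancer-null control cells. Most of that sum was Egfl7, with a mean of 20.2 TPM. Stromal genes, at 2.41 to 8.64 summed TPM, gave 3 higher and 1 lower of 9. The part of these cell types in the group differences of the hepatocyte genes was not tested.

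Further hepatocyte genes were read from 7 lists of 80 genes in all, of which 79 were matched and 53 tested. By replicate number 43 of the 53 were called, 40 of them with number 1 highest and 42 with number 4 lowest. The calls were 8 of 8 plasma carriers, 5 of 5 other apolipoproteins, 8 of 12 clotting proteins, 11 of 12 protease inhibitors, 4 of 5 complement and secreted proteins, 3 of 4 metabolic enzymes and 4 of 7 transcription factors. The summed level of each of the 7 lists was highest in number 1 in 5 of 5 groups and lowest in number 4 in 4 of 5. Of the hepatoblast and epithelial list 3 of 6 were called. In the lists of other cell types 6 of 10 erythroid, 3 of 8 endothelial, 3 of 9 stromal, 1 of 8 macrophage and 1 of 2 mesothelial genes were called. The 6 erythroid genes all lay above the other numbers in number 4, opposite to the hepatocyte genes. All 3 of the endothelial genes called lay above the other numbers in number 4, but the summed level of the endothelial list was highest in number 1 in 4 of 5 groups and lowest in number 4 in 4 of 5. Its means by number lay close together, at 28.2, 22.9, 22.9 and 22.6 TPM for numbers 1 to 4. Most of this sum was 1 gene, Egfl7, with a mean of 20.2 TPM over the 20 libraries. The next highest gene of the list, Oit3, had a mean of 1.14 TPM. The mesothelial list, at 0.15 to 1.27 summed TPM, was highest in number 1 in 3 of 5 groups and lowest in number 4 in 4 of 5.

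The leading genes of these lists cover secreted and nuclear products. Hnf4a, a transcription factor that defines hepatocytes, stood at 9.43 ± 6.07 CPM in wild-type cells and at 3.51 ± 1.74 CPM with R307W (SD, n = 4), from 1.67 to 17.8 CPM over the 20 libraries. It was called lower with R307W than in wild-type cells, with a log2 difference of -1.47 ± 0.477 and an adjusted p of 0.0227 by edgeR. Trf, which encodes the iron carrier transferrin, stood at 62.6 to 713 CPM and differed by number, with 1.06 above the others in number 1 and -0.90 in number 4 (edgeR adjusted p = 0.00872). Fgg, the third fibrinogen chain, ran from 1.27 CPM in R307W number 4 to 61.8 CPM in wild-type number 1, the same libraries as Fga and Fgb. Krt8 and Krt18, keratins of hepatocytes and other simple epithelia, were lower with R307W than in wild-type cells by -1.89 ± 0.521 and -1.98 ± 0.504 (edgeR adjusted p = 0.00864 and 0.00490).

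In the comparison of R307W with wild-type cells, 24 of the 53 further hepatocyte genes (45.3%) were called lower and 0 higher, against 17% of all genes tested called lower. These genes were read in the same libraries as the main set and most followed it closely, so the count is not independent of the calls above. How it changes with single libraries left out was not tested. The calls were 9 of 12 protease inhibitors, 5 of 8 plasma carriers, 4 of 12 clotting proteins, 3 of 5 complement and secreted proteins, 3 of 7 transcription factors, 0 of 5 apolipoproteins and 0 of 4 metabolic enzymes. The called genes included Gc, the vitamin D carrier (-2.12), Rbp4, the retinol carrier that binds transthyretin (-1.99), Plg, plasminogen (-2.35), and Foxa2, a forkhead factor of liver (-1.97). Against wild-type cells 12 (22.6%) were called lower with T354M and 9 (17%) with GATA2 in the model of group means. These shares were near the 18.4% and 16% of all genes tested called lower there. In fits with a replicate block, 45, 44 and 42 of the 53 were called lower with R307W, T354M and GATA2. The same blocked fits called 19.7%, 21.5% and 19.5% of all genes tested lower. The limit on pairing by number is given in the closing section. In enhancer-null control cells 0 were lower and 1 was higher in the model of group means, where 23.2% of all genes tested were lower and 20.1% higher. That 1 was Hp, haptoglobin, a gene also known from maturing myeloid cells, at 183 ± 19.5 CPM against 99.3 ± 21.9 CPM in wild-type cells (SD, n = 4; log2 difference 0.85 ± 0.269, edgeR adjusted p = 0.0155). With the block 26 of the 53 were called lower and 1 higher in enhancer-null control cells. The same blocked fit called 25.9% of all genes tested lower and 22.2% higher.

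**Figure D5:**
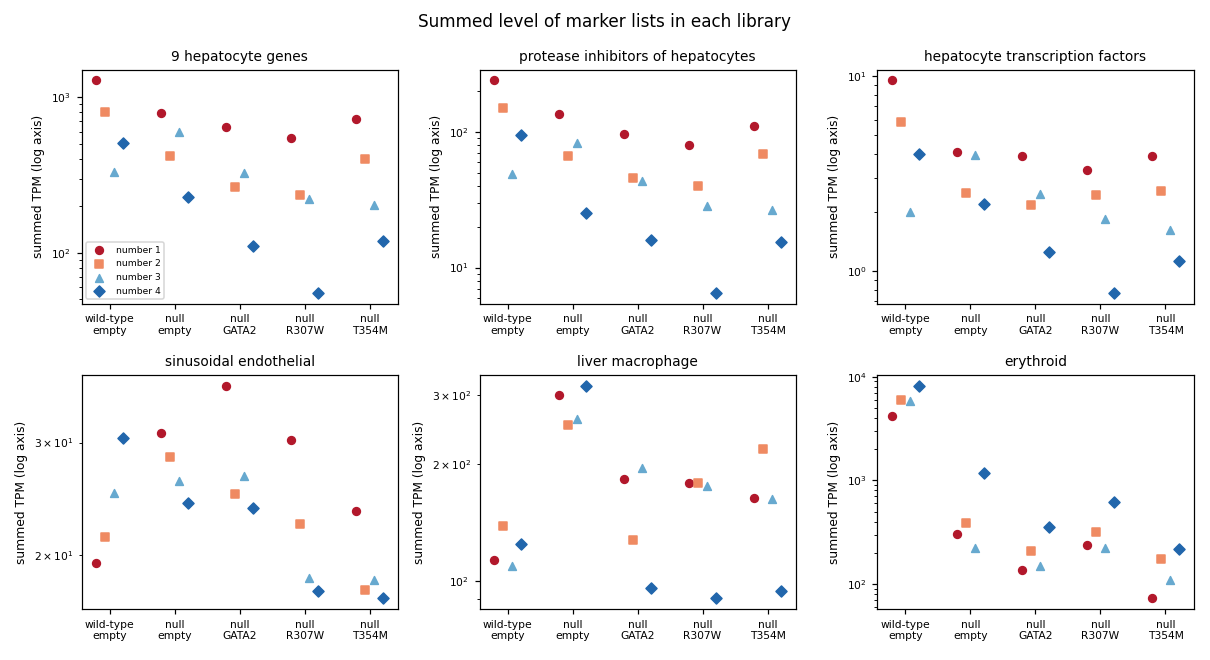
Each panel plots the summed TPM of a gene list in the 20 libraries on a log axis, by group and replicate number. The 9 genes, the protease inhibitors and the hepatocyte transcription factors share their highest library, wild-type number 1, whereas the erythroid list is highest in number 4 in all 5 groups and 4154 to 8216 TPM in wild-type cells.

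The 9 genes followed one another closely over libraries. Each gene's log2 CPM had a Pearson correlation of 0.939 (Apoh) to 0.991 (Ttr) with the mean of the other 8 over the 20 libraries, and of 0.912 to 0.993 after the group means were taken off. The 10 other genes most like the mean of the 9 were Serpina1b (r = 0.997), Ambp (0.993), Itih2 (0.993), Serpina1a (0.991), Cp (0.990), Kng1 (0.989), F2 (0.989), Serpinf2 (0.988), Apob (0.986) and Hpx (0.985). These encode plasma proteins: alpha-1 antitrypsin forms, protease inhibitor components, ceruloplasmin, kininogen, prothrombin, antiplasmin, apolipoprotein B and hemopexin. Of the 10, 9 stood in the hepatocyte lists, the exception being Serpinf2, and 26 of the top 50 stood there or in the hepatoblast list. With deviations from the group means, 8 of the 10 remained. The Serpina1 and Kng genes have near-identical copies between which reads may be split, so their single levels are uncertain. All points of these correlations share libraries, depth and scaling.

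Likeness to the 9 genes ran through most hepatocyte lists but not all their members. Median r was 0.969 for the 12 protease inhibitors, 0.965 for the 8 plasma carriers, 0.945 for the 12 clotting proteins, 0.887 for the 7 transcription factors, 0.886 for the 5 apolipoproteins, 0.864 for the 5 complement and secreted proteins, 0.861 for the 4 metabolic enzymes and 0.914 for the 6 hepatoblast and epithelial genes. For lists of other cells it was 0.422 for the 2 mesothelial genes tested (the higher at 0.845), 0.275 for erythroid, 0.274 for endothelial, 0.241 for stromal and 0.116 for macrophage genes, against -0.01 for all genes tested. F10, the clotting factor X gene, stood apart in its list with r = 0.0198, at 22.3 to 50.6 CPM and with no order by group like that of the 9 genes (25.7 ± 4.62 CPM with T354M, 31.2 ± 3.31 in wild-type cells and 42.6 ± 9.83 with GATA2; SD, n = 4). Hp had r = 0.401 and Dlk1, a hepatoblast surface gene, 0.130. Dlk1 was higher in enhancer-null control than in wild-type cells with a log2 difference of 1.60 ± 0.466 (adjusted p = 0.00912 by edgeR), the direction opposite to the 9 genes.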

How the data were processed

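Libraries were made from total RNA by the NuGEN Ovation procedure, per the labels. The submitters' processing notes name STAR 2.5.2b, RSEM 1.3.0 and the build mm10. The deposited tables give for each gene an expected count, the number of reads RSEM assigns to it, and the TPM and FPKM values that the authors obtained by scaling to length and library. Expected counts, rounded, were used for tests, TPM for levels between genes, and FPKM in no result. Symbols for 53274 of 53379 identifiers came from GENCODE M21 after removal of version numbers. The 105 without one held at most 0.0148% of a library.

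Genes were filtered with filterByExpr, scaled by TMM and fitted with edgeR 4.0.16 in R 4.3.3 in 1 model of 5 group means with 15 residual degrees of freedom. Adjustment was by Benjamini-Hochberg across the 15835 tested genes, with calls at an adjusted p below 0.05. The SE is the size of a log2 difference divided by the square root of F. Replicate number was tested with group in the same kind of fit (12 residual degrees of freedom). The likeness of genes used log2 CPM with a prior count of 2. The edgeR fits of enhancer-null control against wild-type cells and of replicate number were tested on simulated counts. Libraries of a group differed by a chi-square of 18.1 to 114 per degree of freedom, so none was a duplicate.

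Same-numbered libraries deviated together, with every correlation of deviations above 0.1, in the comparison of GATA2 with the control vector and in those between the vectors (0.124 to 0.667). The pairing comes from the data only, and blocking by number changed no call of the 9 genes there.

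The 9 genes and all lists were chosen with earlier results of these data known. An earlier description already showed lower hepatocyte genes in number 4, so that pattern is not independent. Named were the 9 genes, Gata2, mt-Rnr2, the 10 genes most like the 9, the 2 with the highest mean TPM of a list and genes called in a comparison described; F10, Hp, Dlk1 and the genes of other cell types named were chosen after their values were seen where this rule does not name them. Alternatives are given in the closing section. Handling that differed between the R307W and T354M libraries and the rest cannot be told apart from the vectors.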

Additional observations from a re-analysis of the deposited data

Results flagged for a closer look

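In 1 of the 45 sets of 4 libraries (9 genes in 5 groups) a library stood far from the others: Apoa1 in wild-type cells with the control vector, where library 1 had 15.9 CPM and the others 2.82 to 4.12 CPM. The gap to the nearest library was 0.900 of the whole range of the group. Chance flags about 1 in 20 such groups. The same library was the highest of all 20 for each of the 9 genes. Without it the 5 calls of R307W against wild-type cells in the model of group means became 0.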

How the results depend on the processing

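With a replicate block, the calls among the 9 genes, all lower, became 7 for enhancer-null control against wild-type cells, 8 for R307W against the control vector, and 9 each for GATA2, R307W and T354M against wild-type cells. The same blocked fits called 48.1%, 25.9%, 37.1%, 38.7% and 42.7% of all genes tested. In these comparisons at least 1 correlation of the deviations of same-numbered libraries over all genes tested was under 0.1. The correlations were -0.105 to 0.232 with wild-type libraries. With the enhancer-null control they were 0.019 to 0.311 for R307W and 0.062 to 0.313 for T354M. Whether the number pairs these libraries is not given by the labels. For the 9 genes themselves number 1 was the highest library in every group. The block changed no other count of calls among the 9 genes. Without the filter on low counts, calls against wild-type cells were 1 for GATA2, 8 for R307W and 1 for T354M. Limma on log2(TPM + 1) gave 1, 2 and 1, and a fit of only the 8 libraries compared gave 2 for R307W. Without number 4 of all groups 1 gene was called for T354M against wild-type cells. Without number 1 of all groups, an alternative chosen after seeing the data, 3 of the 9 were called by replicate number. Leaving out 1 library at a time gave 0 to 9 calls for R307W, 0 to 4 for T354M and 0 to 1 for GATA2 against wild-type cells, 9 in every case by replicate number, and 0 in every case for the other 7 comparisons. DESeq2 size factors and the DESeq2 1.42.0 test left each count within 1.5 times its main value. No difference that was called reversed under these alternatives. Of single genes called, 37 values with 1 library left out and 10 under other alternatives kept their direction and lost the call; the cause was not tested. Mean summed levels relative to wild-type cells moved by less than 1 SD with TPM or without mitochondrial ribosomal RNA. Depth limits Apoh most, at 4 to 63 counts.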
